A study of Glycine max with 10 samples.

Results

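The basic leucine zipper (bZIP) transcription factors of developing soybean seeds were followed through 99 probe sets of the Affymetrix Soybean Genome Array, out of 37593 in the deposited table. A probe set is the group of short probes on the array that reads 1 transcript. Members were the probe sets for which the probe-to-gene table lists a single gene whose symbol or synonym starts with bZIP, a rule that itself uses no measured level. They stand for 65 of the 6031 genes that the table names singly, of which 40 have 1 probe set and 25 have several, at most 4. Of the 99, 10 entered through a synonym only, and 6 further probe sets that list a bZIP among several genes were left out. The RNA came from whole seeds of field-grown Glycine max variety Evans, a single unmodified line, harvested on 5 dates counted in days after flowering (25, 30, 40, 45 and 50 DAF), with 2 biological replicates and thus 2 arrays per time point. The study's text gives the middle date differently in its results. The 40 DAF of the sample labels is used here, and the midpoint days and the length of the intervals on either side of that date depend on it. The question followed here was when each bZIP transcript changed, set beside the transcripts of seed maturation proteins, the late embryogenesis abundant (LEA) and related proteins that accumulate before a seed dries.

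A bZIP factor binds DNA as a dimer. A basic stretch of the protein contacts the DNA, and the leucine zipper that follows it holds the partners together, which may be 2 copies of 1 factor or members of different genes. Plant bZIPs are known from abscisic acid responses, light responses, defence, sugar signalling and seed maturation. In Arabidopsis seeds, bZIPs such as ABI5 act with the regulator ABI3 on LEA and storage protein genes. Most plant bZIPs bind sites with the core ACGT, and the bases around the core separate the classes. The following sites, listed among the promoter elements of the study's supplementary tables, are printed to show that shared core, in capitals. The G-box type site of the soybean Aux28 promoter is bound by the soybean factors SGBF, the palindromic C-box by soybean STF1 and TGA-type factors, the hexamer by Arabidopsis TGA1 and GBF1, and the last site comes from a carrot LEA gene active in seeds.
SGBFGMGMAUX28: tccACGTgtc
PALINDROMICCBOXGM: tgACGTca
HEXAT: tgACGTgg
ABASEED1: tgttACGTgcc

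Signals below were scaled to a common array median of 309.9, and those under 50 are called low. The mean signal of a bZIP probe set over the 10 arrays ranged between 7.58 and 7462, with a median of 438, against a median of 366 over all probe sets. Low mean signals were found for 12 bZIP probe sets (12.1%, against 17.9% of all probe sets), among them both of BZIP1, a factor also named AREB1 after the abscisic acid responsive element it binds. Fewer cells of a type and less RNA per cell cannot be told apart in whole seeds.

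The arrays of 1 time point differed from each other most at 45 DAF. Replicate arrays correlated at 0.919 to 0.927 across probe sets, but at 0.880 at 45 DAF, where the median SD of bZIP probe sets (log2, n = 2) was 0.386, against 0.198 to 0.269 at the other times. The hydrophobic protein HPS, counted here among the seed coat markers, had a signal of 55179 in replicate 1 and 14670 in replicate 2 at 45 DAF. The 50 DAF arrays gave 242 and 144. The seed coat BURP-domain protein SCB1 differed likewise at 30 DAF, with 847 in replicate 1 and 19958 in replicate 2. The interval of the largest change, and the position of an array between 25 and 50 DAF, are therefore also given for each 45 DAF array alone. Calls and changes at 50 against 45 DAF use both arrays unless stated. The summed signal of 3 seed coat markers was 12396 to 13782 at 50 DAF, against 96636 to 99221 at 25 DAF, and all 3 were called lower. HPS made up 49454 and 61731 of the sums at 25 DAF. The sum over 5 probe sets of cotyledon markers was 180889 to 216256 at 50 DAF, against 156372 to 212043 at 25 DAF. That over 11 probe sets of the vegetative storage proteins VSPA and VSPB was 574 to 820 at 50 DAF, against 3023 to 3698 at 25 DAF. No probe set matched the nodule markers that were looked for. The array medians of the deposited values were also lower at 50 DAF (221 and 223, against 304 to 325 in the other arrays), so that without centring the median of all probe sets shifted by -0.46 (log2) between 25 and 50 DAF. All changes below are relative to that median.

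The bZIP probe sets that changed did so mostly in the last interval and in both directions. Their shares were near those of all probe sets except at 50 against 45 DAF. There, on centred values, the bZIP share was higher than that of all probe sets, more so among falls. The overall F-test of limma over the 5 time points (Benjamini-Hochberg adjusted p under 0.01 over all probe sets) called 27 of the 99 probe sets, of 24 genes, where the share over all probe sets was 24% and that over the 8677 probe sets with 1 gene symbol was 31.7%. No bZIP probe set was called at 30 against 25 DAF (0.0106% of all probe sets were called at adjusted p under 0.05, the threshold for every difference between 2 times). At an unadjusted p under 0.05 this comparison had 4 bZIP probe sets, and the unmoderated test of the linear model called 0 after adjustment. At 40 against 30 DAF the count was 1, which was higher (1.16% of all probe sets were called, 0.678% higher and 0.481% lower). At 45 against 40 DAF it was 0, as over all probe sets (0%), with 2 bZIP probe sets at an unadjusted p under 0.05 and 0 by the unmoderated test. At 50 against 45 DAF, 46 (46.5%) were called, 23 higher and 23 lower, where 31.2% of all probe sets were called (18.6% higher and 12.6% lower). Of the 8677 probe sets with 1 gene symbol 36.8% were called, 1923 higher and 1270 lower. The differences between these shares were not tested. At 50 against 25 DAF, 50 were called, 27 higher and 23 lower, where the share of all probe sets was 43.9% (24.6% higher and 19.3% lower) and that of the probe sets with 1 gene symbol was 51.6%. The rises belonged to 19 genes and the falls to 19 other genes. The median change of the 99 bZIP probe sets was 0.29 (log2) at 50 against 25 DAF, beside 0.17 over all probe sets. The count over time depended on the fit and on the 50 DAF arrays. It was 0 without the variance trend, where 0 of all probe sets were called. It was also smaller without either replicate of 50 DAF, as was the count over all probe sets. In 43 of the 99 none of these tests made a call, and the same count over all probe sets was not made. The split by direction depended on the scaling. Without centring it was 20 higher and 27 lower at 50 against 25 DAF, and 11 higher and 25 lower at 50 against 45 DAF. Quantile normalization gave 11 higher and 23 lower for the last interval. Shares over all probe sets are not given for these scalings, so the higher bZIP share in that interval was seen on centred values only.

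The 27 probe sets called over time took 3 shapes. Those highest at 50 DAF numbered 13, of 11 genes, while 7, of 6 genes, were highest at 40 or 45 DAF, and 7, of 7 genes, were highest at 25 or 30 DAF. All 27 were also called at 50 against 45 DAF, and their median change in that interval (log2) was 1.87 in the group highest at 50 DAF, -1.90 in the group highest at 40 or 45 DAF and -1.39 in the group highest early. The plot of the 27 profiles shows these groups.

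**Figure D1:**
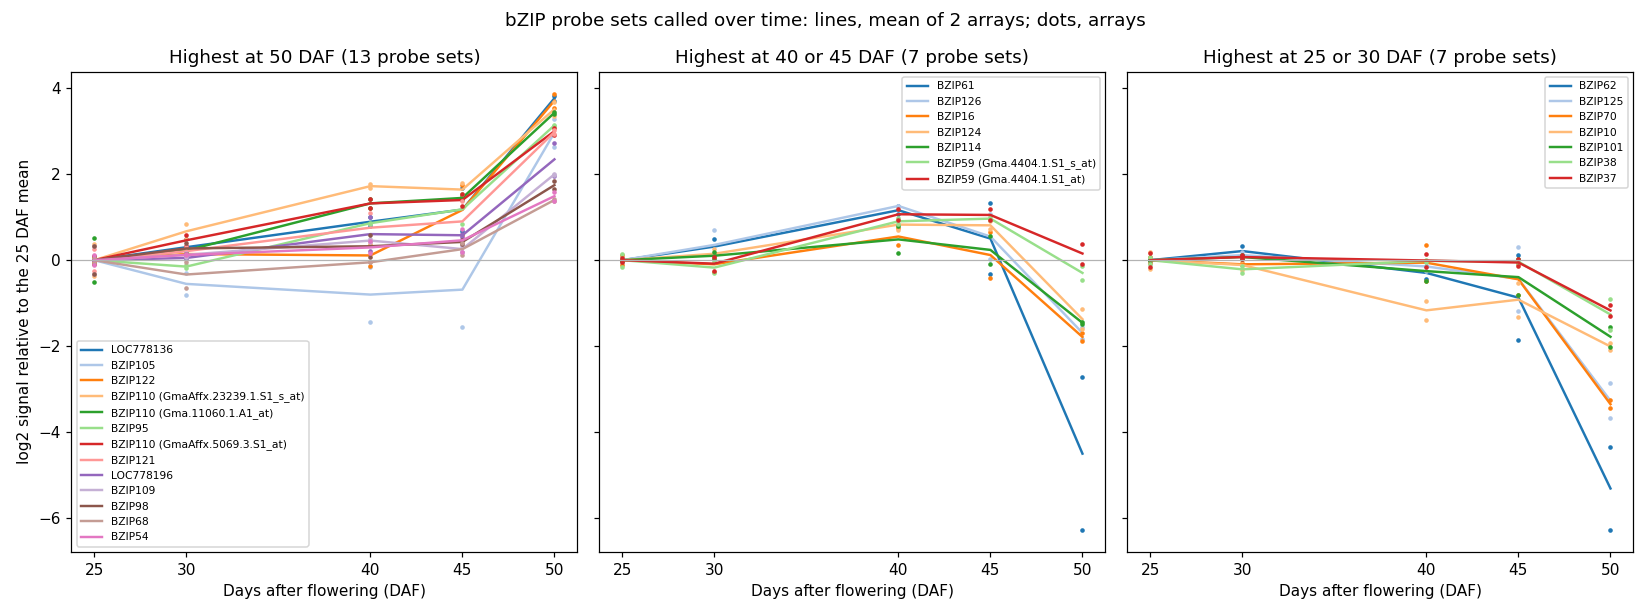
Log2 signal relative to the 25 DAF mean (vertical axis) against days after flowering (horizontal axis) for the 27 bZIP probe sets called over time, in 3 panels by the time of the highest mean. Lines join the means of 2 arrays and dots are arrays. In each panel the steepest stretch of most lines lies between 45 and 50 DAF, upward in the first panel and downward in the other 2.

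Among the probe sets highest at 50 DAF were 2 related to the TGA factors. TGA factors bind the TGACG motif and act with the coactivator NPR1 in salicylic acid responses of Arabidopsis. BZIP95, which the study's annotation matched to Arabidopsis TGA2, had signals of 1208 and 1063 at 25 DAF, 997 and 1047 at 30 DAF, 2075 and 2035 at 40 DAF, 2016 and 3276 at 45 DAF, and 9897 and 9977 at 50 DAF. Both 50 DAF arrays lay above every other array, and the signals at 40 and 45 DAF lay above those at 25 and 30 DAF. The change at 50 against 25 DAF was 3.13 ± 0.23 (log2, SE, adjusted p = 4.87e-05), and 1.18 ± 0.23 was already reached at 45 against 25 DAF (adjusted p = 0.0258). LOC778136, with the synonyms bZIP95, bZIP96 and GmTGA24, gave 595 and 524 at 25 DAF, 790 and 600 at 30 DAF, 1113 and 967 at 40 DAF, 897 and 1775 at 45 DAF, and 7885 and 7283 at 50 DAF. Both 50 DAF arrays again lay above all others, the 45 DAF arrays lay on either side of those at 40 DAF, and the change at 50 against 25 DAF was 3.76 ± 0.32 (adjusted p = 7.28e-05). LOC778136 lies at chr19:39428389-39434681 in the RefSeq annotation of Glycine_max_v4.0, the assembly of all coordinates given here.

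BZIP110 rose in 3 probe sets. The study's annotation matched 2 of them to Arabidopsis bZIP11 and bZIP2, small factors of the S1 group that are known for translational control by sucrose and for pairing with C-group bZIPs. The gene lies at chr8:8846278-8847685. The probe set whose name carries the suffix for probes shared by several transcripts gave 242 and 410 at 25 DAF, 446 and 565 at 30 DAF, 1006 and 1071 at 40 DAF, 1092 and 883 at 45 DAF, and 3201 and 4012 at 50 DAF. It was the only bZIP probe set among those higher at 50 DAF that was called by 40 DAF, with 1.72 ± 0.28 at 40 against 25 DAF (adjusted p = 0.0177) and 3.51 ± 0.28 at 50 against 25 DAF (adjusted p = 5.91e-05). The next probe set, without that suffix, gave 356 and 718 at 25 DAF, 580 and 603 at 30 DAF, 1360 and 1172 at 40 DAF, 1435 and 1324 at 45 DAF, and 5518 and 5346 at 50 DAF. Here too the signals formed 3 levels that did not overlap, at 25 to 30 DAF, at 40 to 45 DAF and at 50 DAF, and the change at 50 against 25 DAF was 3.42 ± 0.30 (adjusted p = 7.85e-05).

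The last of the 3 probe sets is named BZIP110 in the table, while the gene model it was given elsewhere lies on the chromosome of BZIP111, so its gene is uncertain. It gave 150 and 170 at 25 DAF, 241 and 200 at 30 DAF, 427 and 370 at 40 DAF, 383 and 461 at 45 DAF, and 1204 and 1345 at 50 DAF. It followed the other 2, with a change of 3.0 ± 0.30 at 50 against 25 DAF (adjusted p = 0.000125). At 45 against 25 DAF all 3 were called, with changes of 1.40 to 1.64. Both probe sets of BZIP111 were also higher at 50 against 25 DAF, by 1.91 and 2.29 (adjusted p = 0.0278 and 0.00913).

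BZIP122 and BZIP121 had their largest step between 45 and 50 DAF. At 45 against 25 DAF their differences of 1.17 and 0.90 were not called (adjusted p = 0.0743 and 0.177). BZIP122, matched by the study to Arabidopsis bZIP19, a regulator of zinc deficiency responses, gave 538 and 504 at 25 DAF, 565 and 586 at 30 DAF, 475 and 666 at 40 DAF, 785 and 1744 at 45 DAF, and 7604 and 6084 at 50 DAF. The signals of 25 to 40 DAF overlapped, replicate 2 of 45 DAF stood well above replicate 1, and the change was 3.71 ± 0.34 at 50 against 25 DAF (adjusted p = 8.8e-05). BZIP121, at chr11:8237950-8241129, had 374 and 263 at 25 DAF, 390 and 337 at 30 DAF, 421 and 666 at 40 DAF, 419 and 820 at 45 DAF, and 2381 and 2561 at 50 DAF, a change of 2.98 ± 0.37 (adjusted p = 0.00028).

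BZIP105 differed from these in that it was not above its 25 DAF level before 50 DAF in most arrays. Its shared probe set gave 475 and 434 at 25 DAF, 368 and 261 at 30 DAF, 406 and 168 at 40 DAF, 154 and 520 at 45 DAF, and 2829 and 4433 at 50 DAF. Only replicate 2 of 45 DAF exceeded the 25 DAF arrays among the intermediate ones. The change was 3.65 ± 0.60 at 50 against 45 DAF (adjusted p = 0.00247) and 2.96 ± 0.60 at 50 against 25 DAF (adjusted p = 0.00328). The other called BZIP105 probe set averaged 2943 ± 710 at 50 DAF, against 323 ± 7.78 at 25 DAF (SD, n = 2 each), a change of 3.17 (adjusted p = 0.0175).

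The remaining probe sets highest at 50 DAF changed less. LOC778196, with the synonym bZIP107, rose by 2.34 ± 0.35 at 50 against 25 DAF, BZIP109 by 1.99 ± 0.23, BZIP98 by 1.74 ± 0.29, BZIP54 by 1.49 ± 0.21 and BZIP68 by 1.40 ± 0.22 (adjusted p = 0.000209 to 0.00116). BZIP68 had 10313 and 10730 at 50 DAF, against 4159 and 3826 at 25 DAF. Of the rises called at 50 against 25 DAF but not over time, those of SOYGBFA, a G-box binding factor with the synonym bZIP116, and of BZIP28 were 1.59 and 1.34 (adjusted p = 0.0286 and 0.00405).

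**Figure D2:**
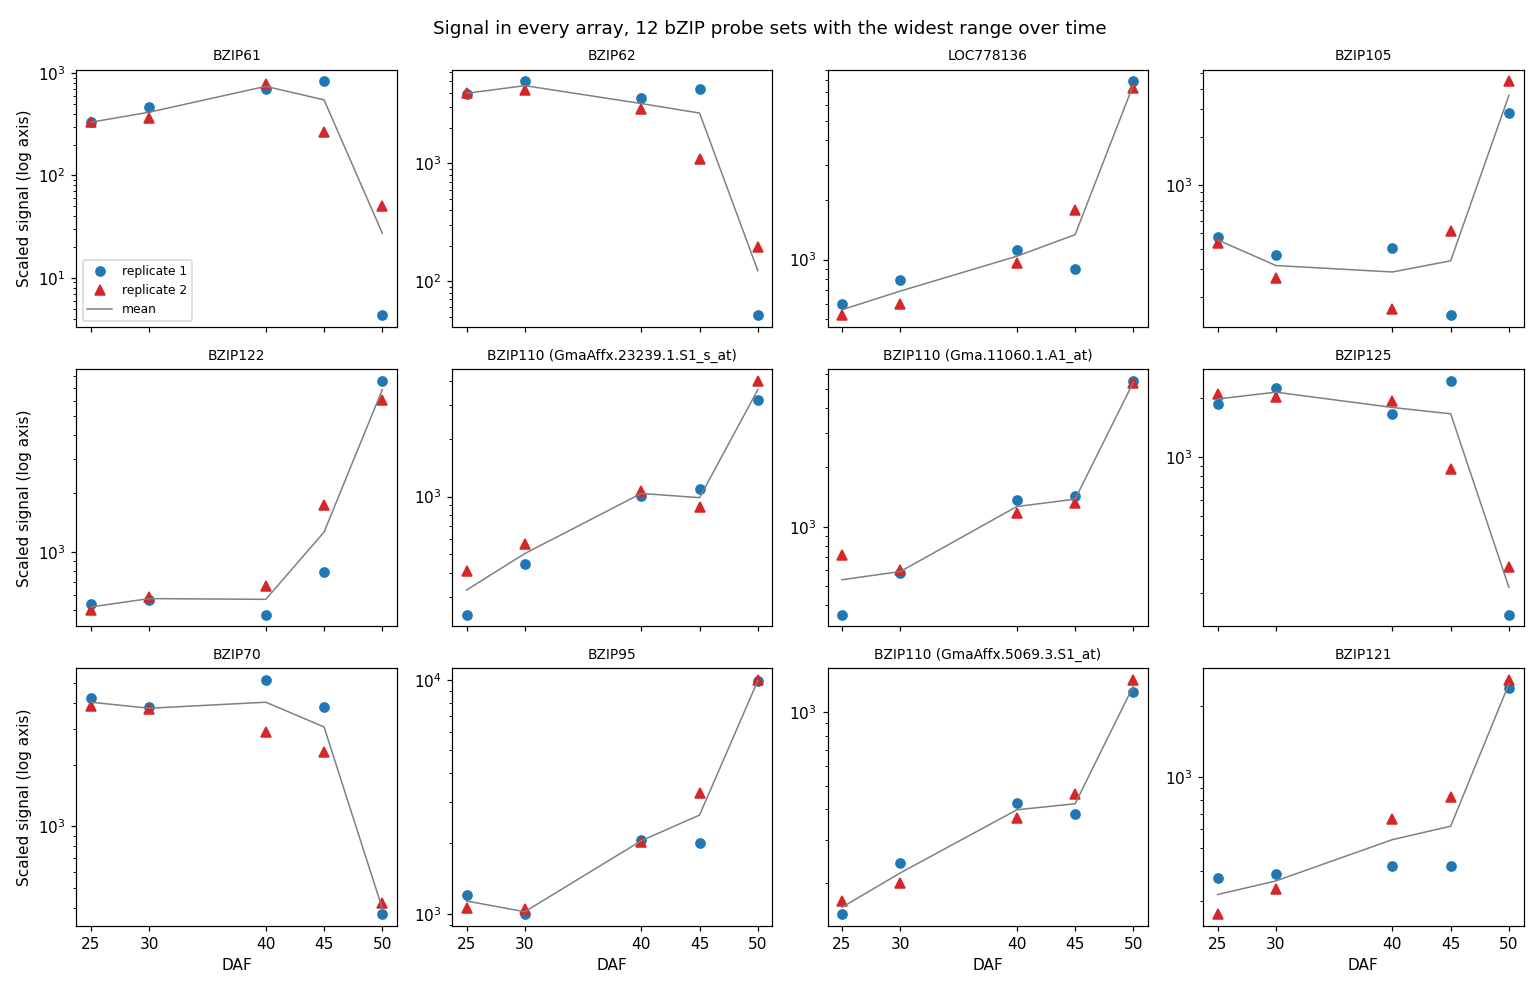
Scaled signal (vertical axes, log scale, a range of its own in each panel) against DAF (horizontal axes) for the 12 bZIP probe sets with the widest range of time point means among those called over time. Circles are replicate 1, triangles replicate 2 and lines the means; the 2 replicates part most often at 45 DAF, as in BZIP62 with 4268 and 1086.

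BZIP62 and BZIP61 had the deepest falls among the probe sets called over time, and the array's identifiers place their probe sets in 1 cluster of similar transcripts. BZIP62 is a soybean factor studied in Arabidopsis plants that overexpress it, in relation to abscisic acid and salt responses. Its shared probe set gave 3897 and 3976 at 25 DAF, 4975 and 4177 at 30 DAF, 3561 and 2885 at 40 DAF, 4268 and 1086 at 45 DAF, and 51.2 and 194 at 50 DAF. The 50 DAF arrays and replicate 2 of 45 DAF lay below all others, and the change at 50 against 25 DAF was -5.30 ± 0.67 (adjusted p = 0.000321). A further BZIP62 probe set fell by 2.77 (adjusted p = 0.0129), and the remaining one, at 77.2 at 50 DAF against 106 at 25 DAF, was not called (adjusted p = 0.846).

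BZIP61, at chr4:6530338-6536089, had 330 and 333 at 25 DAF, 463 and 367 at 30 DAF, 693 and 791 at 40 DAF, 830 and 265 at 45 DAF, and 4.30 and 50.3 at 50 DAF. It was highest at 40 DAF in replicate 2 and at 45 DAF in replicate 1, and its change was -4.49 ± 0.97 at 50 against 25 DAF (adjusted p = 0.00473). Because 1 of its 50 DAF signals was far below 50, that size is not well fixed. Without replicate 1 of 50 DAF the change was -2.50, without replicate 2 it was -6.49, and with 50 added to each signal it was -2.09.

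BZIP70 and BZIP125 stayed high until 40 DAF or later. BZIP70, at chr8:18538704-18543916, gave 4225 and 3862 at 25 DAF, 3830 and 3729 at 30 DAF, 5181 and 2907 at 40 DAF, 3820 and 2305 at 45 DAF, and 373 and 423 at 50 DAF. The lowest array of 25 to 45 DAF still stood at 2305 and the change was -3.35 ± 0.27 (adjusted p = 6.26e-05). BZIP125 gave 1872 and 2102 at 25 DAF, 2264 and 2044 at 30 DAF, 1665 and 1929 at 40 DAF, 2464 and 872 at 45 DAF, and 155 and 274 at 50 DAF, a change of -3.27 ± 0.45 (adjusted p = 0.000453). Both 50 DAF arrays were below all others, and replicate 2 of 45 DAF was the next lowest in both genes.

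Of the other early members, BZIP10 had the largest difference at 40 against 25 DAF, -1.17, which was not called (adjusted p = 0.113). At 45 against 25 DAF its difference was -0.92 (adjusted p = 0.153), and its largest step was the one between 45 and 50 DAF. BZIP10 gave 749 and 986 at 25 DAF, 857 and 738 at 30 DAF, 327 and 449 at 40 DAF, 597 and 347 at 45 DAF, and 202 and 227 at 50 DAF. The arrays at 40 and 45 DAF lay between those of 25 to 30 DAF and those of 50 DAF, and the change at 50 against 25 DAF was -2.01 ± 0.35 (adjusted p = 0.00156). BZIP101, BZIP38 and BZIP37 fell by 1.78, 1.26 and 1.17 at 50 against 25 DAF. Over all 23 probe sets called lower, the falls ranged between -0.61 in BZIP132 and -5.30 in BZIP62 with a median of -1.70. Low means at 50 DAF were found for 4 of the 23, 1 each of BZIP10, BZIP46, BZIP61 and BZIP83. That of BZIP10 is not the probe set given above. The 3 seed coat markers were also lower at 50 than at 25 DAF, but fell at differing times. SCB1 averaged 111 at 40 DAF, against 17271 at 25 DAF, while HPS and the remaining marker, Ep, had their largest step between 45 and 50 DAF. The part of the seed coat in the bZIP falls was not tested.

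A further group rose toward 40 DAF and fell again. Its 7 probe sets were all higher at 40 than at 25 DAF by their means, with a median difference of 0.90 (log2), and all were called lower at 50 against 45 DAF. BZIP59, at chr10:1180316-1181481, was the clearest. Its shared probe set gave 3546 and 2872 at 25 DAF, 2595 and 3088 at 30 DAF, 5685 and 6264 at 40 DAF, 6346 and 6119 at 45 DAF, and 2337 and 2890 at 50 DAF. The arrays of 40 and 45 DAF stood above all others without overlap. The change was 1.08 ± 0.20 at 40 against 30 DAF (adjusted p = 0.0459), the only bZIP call in that interval, and -1.26 ± 0.20 at 50 against 45 DAF (adjusted p = 0.00225). Another BZIP59 probe set gave 716 and 672 at 25 DAF, 585 and 734 at 30 DAF, 1593 and 1324 at 40 DAF, 1315 and 1569 at 45 DAF, and 657 and 907 at 50 DAF, with changes of 1.15 at 40 against 30 DAF (adjusted p = 0.0685) and -0.90 at 50 against 45 DAF (adjusted p = 0.0237). Neither was called at 50 against 25 DAF, where the changes were -0.30 and 0.15. The remaining BZIP59 probe set, with lower signals, had its highest mean of 144 at 45 DAF and was called in none of the comparisons (F-test adjusted p = 0.39).

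The other 5 genes of this group ended below their 25 DAF level. BZIP124 gave 5545 and 5719 at 25 DAF, 6721 and 5802 at 30 DAF, 10856 and 9180 at 40 DAF, 9271 and 10505 at 45 DAF, and 1849 and 2565 at 50 DAF. Its level at 40 and 45 DAF lay above that at the earlier times, yet only the fall was called, by 2.18 at 50 against 45 DAF (adjusted p = 0.000352), while the difference at 40 against 25 DAF of 0.83 was not (adjusted p = 0.0755). BZIP126 gave 884 and 981 at 25 DAF, 1509 and 939 at 30 DAF, 2231 and 2229 at 40 DAF, 1957 and 948 at 45 DAF, and 320 and 261 at 50 DAF, and fell by 2.24 at 50 against 45 DAF (adjusted p = 0.00123). BZIP16 and BZIP114 had falls of 1.90 and 1.69 in that interval (adjusted p = 0.00159 and 0.00276).

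The seed maturation proteins served as the clock against which these times were read. The list held 43 probe sets found by symbol or synonym, mostly PM and LEA names, and 1 of them, PMM, entered by its letters although that symbol stands for phosphomannomutase. At 50 against 25 DAF 38 of the 43 were called higher and 3 lower, PMM among the lower ones. At 40 against 25 DAF, 21 were called, all higher, where 3.09% of all probe sets were called (1.55% higher and 1.53% lower). The bZIP calls in that comparison were 2, both higher, of BZIP110 and BZIP59. At 45 against 25 DAF 24 were called higher, where 6.01% of all probe sets were called (2.87% higher and 3.14% lower), and 6 bZIP probe sets were called, all higher (BZIP95, BZIP110 with 3 and BZIP59 with 2). The soybean LEA protein SLE2 shows the timing on the log2 scale, with a change of 6.34 at 40 against 30 DAF and 1.83 at 50 against 45 DAF. In signal units its gain was larger between 45 and 50 DAF. Its signals were 75.6 and 66.1 at 25 DAF, 336 and 186 at 30 DAF, 15586 and 26479 at 40 DAF, 10691 and 49522 at 45 DAF, and 83350 and 80105 at 50 DAF.

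Set beside that clock, most bZIP rises came later, at times near those of all rises on the array. Of the probe sets called higher at 50 against 25 DAF, 1 of 27 bZIPs and 21 of 38 seed maturation proteins were called by 40 DAF, 3 and 3 were first called at 45 DAF, and 23 and 14 only at 50 DAF. Of all 9238 probe sets called higher, 4 were first called at 30 DAF, 500 at 40 DAF, 525 at 45 DAF and 8209 at 50 DAF. Counts by 40 DAF moved with single arrays. In either direction, 11 bZIPs and 28 maturation proteins were called by then without replicate 1 of 45 DAF, 10 and 28 without its replicate 2, and 0 and 2 without either 25 DAF array, where the full set gave 2 and 21. Changes of bZIPs were smaller, with a median of 1.99 (log2) at 50 against 25 DAF, beside 4.46 for the maturation proteins called higher, so a count of calls by 40 DAF favours the maturation list. Measures that do not rest on a call at 40 DAF, all on the log2 scale, had the same order. The largest step between neighbouring times was the one between 45 and 50 DAF in 25 of the 27 bZIPs and in 14 of the 38 maturation proteins, and the one between 30 and 40 DAF in 0 and 23. Over all 9238 rises the last step was the largest in 7395 (80.0%). The share of the log2 change between 25 and 50 DAF that was present at 40 DAF had a median of 22.8% in bZIPs and 57.2% in maturation proteins. The midpoint day, at which the line through the log2 means had covered 50% of that change, had a median of 46.4 DAF in the 27 bZIPs, with a range between 29.1 and 48.0, and of 38.7 DAF in the 38 maturation proteins. Over all 9238 probe sets called higher the median was 46.3 DAF, close to the bZIP value, while the maturation proteins lay earlier than both. These are descriptions of lists, with no test between them.

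**Figure D3:**
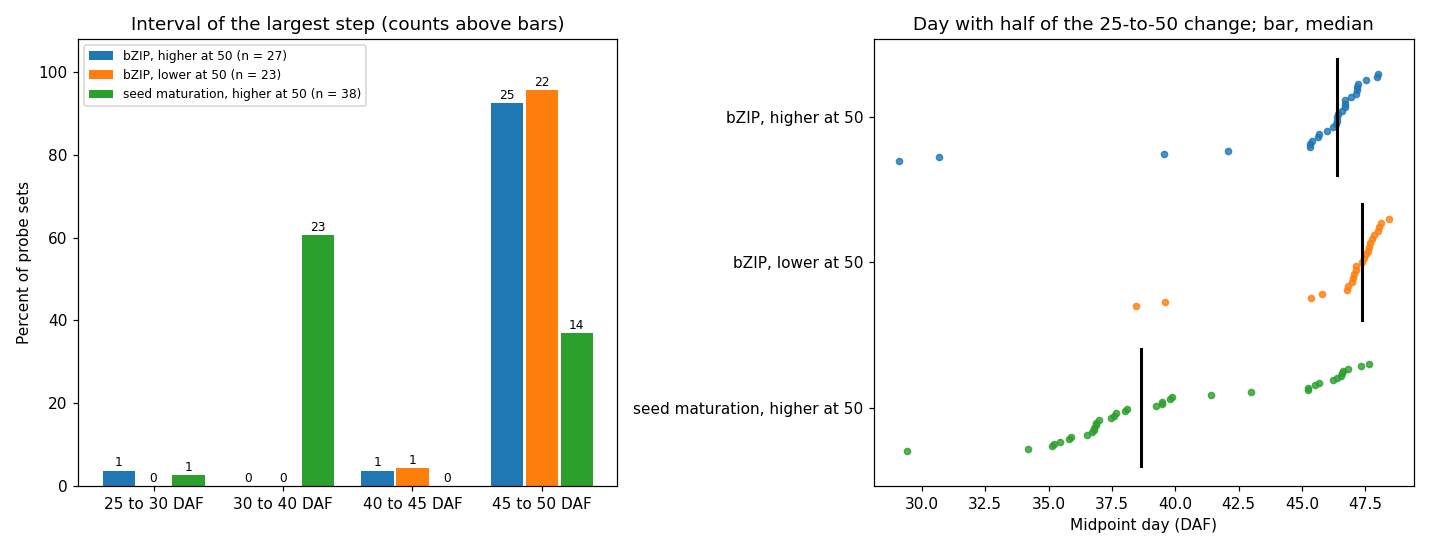
Left, percent of probe sets (vertical axis, bars, counts above) whose largest log2 step between neighbouring time points fell in each interval (horizontal axis). Right, midpoint day of each probe set (horizontal axis, DAF; dots) with the list median as a black bar. For bZIPs the step between 45 and 50 DAF holds 25 of 27 rises and 22 of 23 falls, and for maturation proteins the step between 30 and 40 DAF holds 23 of 38.

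The falls also came late, as did most falls on the array. None of the 23 bZIPs called lower at 50 against 25 DAF was called before 50 DAF, 22 of the 23 had their largest step between 45 and 50 DAF, and the median midpoint day was 47.4 DAF, beside 46.2 over all 7266 probe sets called lower. Of these 7266, 6306 were first called at 50 DAF and 5536 (76.2%) had their largest step between 45 and 50 DAF. Exceptions with early midpoints were few. Among rises these were BZIP111 (29.1 DAF), BZIP90 (30.7), BZIP108 (39.5) and BZIP87 (42.1), each for 1 probe set that was not called over time, and among falls BZIP10 (38.5) and BZIP113 (39.6). The early midpoints of the BZIP111 and BZIP90 probe sets rest on a signal at 30 DAF that was not called against 25 DAF. The gene behind the BZIP90 probe sets is uncertain, since the gene model given to 1 of them elsewhere lies on another chromosome.

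**Figure D4:**
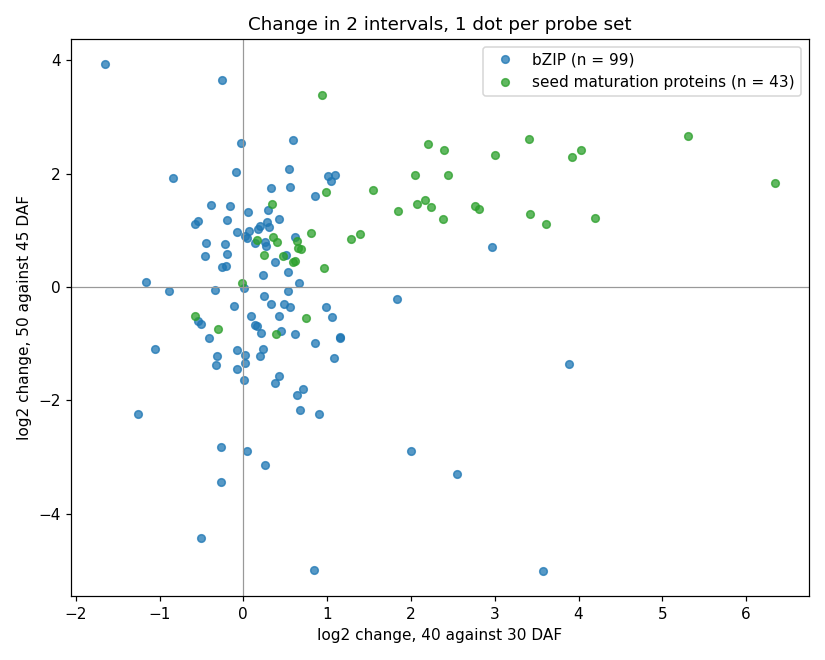
Log2 change at 40 against 30 DAF (horizontal axis) and at 50 against 45 DAF (vertical axis) for 99 bZIP and 43 seed maturation protein probe sets, 1 dot each. Most maturation proteins lie right of 0 and above 0, with list medians of 1.39 and 1.21, whereas bZIPs spread above and below 0 with medians of 0.21 and -0.07.

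Since the 45 DAF arrays differed, the position of each array between the 25 DAF mean (0%) and the 50 DAF mean (100%) was taken for every probe set called at 50 against 25 DAF. For the 27 bZIP rises the median position was 21.1% and 27% in the 40 DAF arrays, and 24.3% in replicate 1 and 40.5% in replicate 2 of 45 DAF. For the 38 maturation proteins it was 56.5% and 58.1% at 40 DAF, and 44.5% in replicate 1 and 81.3% in replicate 2 of 45 DAF. For the 9238 rises over all probe sets it was 18.8% and 22.4% at 40 DAF, and 16% in replicate 1 and 47.5% in replicate 2 of 45 DAF. The median of the bZIP rises was thus below that of the maturation proteins in each of the 4 arrays, and above that of all rises in 3 of them. For the 23 bZIP falls the position was 2.72% and -0.54% at 40 DAF, and -2.20% in replicate 1 and 15.6% in replicate 2 of 45 DAF, where the 7266 falls over all probe sets stood at 22.1% and 23.1% at 40 DAF and at 17.6% and 47.7% at 45 DAF. Replicate 2 of 45 DAF was nearer to the 50 DAF side than replicate 1 in 18 of 27 bZIP rises and 17 of 23 falls, and in 83.3% of the rises and 86.0% of the falls over all probe sets.

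With replicate 1 alone at 45 DAF, the step between 45 and 50 DAF was the largest in 24 of 27 bZIP rises, 22 of 23 bZIP falls and 22 of 38 maturation proteins. With replicate 2 alone it was the largest in 26, 20 and 7. Over all rises the counts were 7886 and 5664 of 9238. On centred values the late step of the bZIPs was therefore present with either array, while the count for the maturation proteins depended on which one was taken. The steps were not counted under other scalings.

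**Figure D5:**
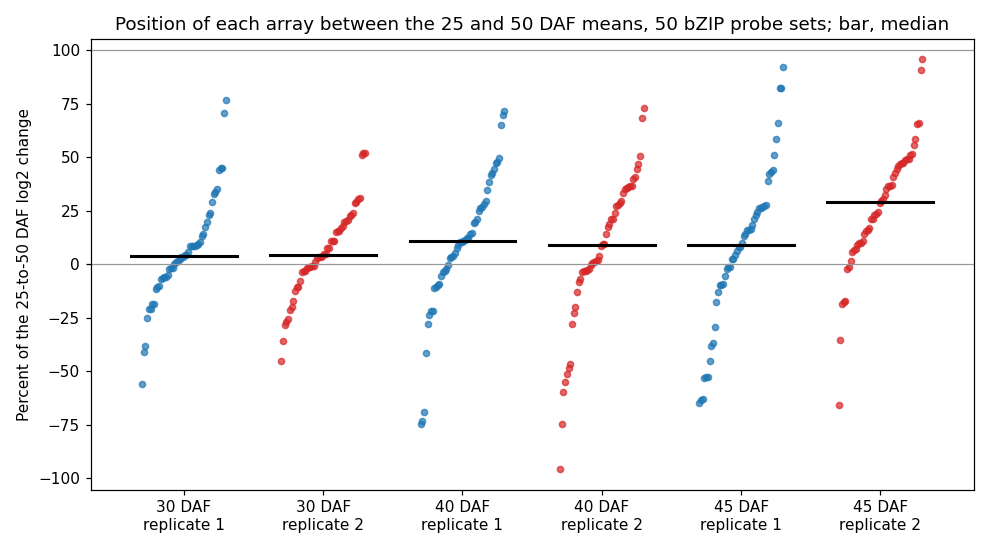
Position of each 30, 40 and 45 DAF array (horizontal axis) between the 25 DAF mean (0%) and the 50 DAF mean (100%), as a percent of the log2 change (vertical axis), for the 50 bZIP probe sets called at 50 against 25 DAF. Dots are probe sets, rises and falls together, and black bars medians; replicate 2 of 45 DAF has the highest median of the 6 arrays.

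Probe sets of 1 gene often differed in whether they were called, but not in the direction of the calls. Of the 25 genes with several probe sets, 7 had none called at 50 against 25 DAF, 6 had all called in 1 direction, 12 had some called, and 0 had calls in both directions. The array's identifiers group similar transcripts, and 7 such clusters held probe sets of different bZIP genes, whose signals may include each other. In 4 of them the called probe sets of both genes moved in 1 direction. BZIP108 and BZIP109 rose, BZIP110 and BZIP111 rose, BZIP61 and BZIP62 fell, and BZIP37 and BZIP38 fell, with 1 probe set each of BZIP108 and BZIP62 not called. The only BZIP110 probe set in its cluster is the one whose gene is uncertain, so that pair may be 1 gene. In 2, the pairs BZIP129 with BZIP130 and BZIP101 with bZIP102, no probe set of the cluster was called. In the last, the partners differed in call. BZIP53B, on chromosome 19, averaged 3699 ± 686 at 50 DAF, against 7760 ± 154 at 25 DAF (SD, n = 2 each), and fell by 1.08 (adjusted p = 0.0026), while bZIP53A, on chromosome 3, had 4508 and 5105 at 50 DAF, against 5147 and 4362 at 25 DAF, a change of 0.02 ± 0.20 (adjusted p = 0.954). The difference between the partners was not tested.

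The 5 members with the highest mean signals among those not called over time included these 2, although signals of different probe sets do not give the relative levels of transcripts. BZIP132, studied for abscisic acid and salt responses in Arabidopsis overexpressers, averaged 7462 over the 10 arrays, with 9963 and 9413 at 40 DAF as its highest pair and 5319 and 4284 at 50 DAF as its lowest. The fall was called at 50 against 45 DAF (-0.78, adjusted p = 0.0224) although the F-test was not (adjusted p = 0.0311). BZIP55 gave 3293 and 2582 at 50 DAF, against 1991 and 2183 at 25 DAF, with no call (adjusted p = 0.1). BZIP77 averaged 3432 ± 1185 at 50 DAF, against 1331 ± 157 at 25 DAF (SD, n = 2 each), and was called higher in that comparison (1.33, adjusted p = 0.00463).

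Other regulators of seed genes were few in the table. Of 3 probe sets for NF-Y factors, the CCAAT-box binding family that includes the embryo regulator LEC1, 0 were called higher and 2 lower at 50 against 25 DAF. LEC1-A gave 3406 and 3363 at 25 DAF, 3383 and 3783 at 30 DAF, 1688 and 1032 at 40 DAF, 1482 and 1189 at 45 DAF, and 83.3 and 209 at 50 DAF, a change of -4.68 ± 0.41 (adjusted p = 7.75e-05). Unlike most bZIP falls, its signals at 40 DAF were already below both earlier times, although that difference was not called at 40 against 30 DAF (adjusted p = 0.138). Of 3 DOF factors, zinc finger proteins, 1 was called lower and 0 higher. A list of probe sets with a name that starts with STF, GBF or AREB, other names given to bZIPs, held 7, of which 3 are among the 99 members. Names with a prefix, such as the GmTGA and SOYSTF synonyms of some members, were outside that list. Of the 7, 3 were called higher and 1 lower at 50 against 25 DAF. Of 11 storage protein probe sets, 2 were called higher and 2 lower at 50 against 25 DAF. No probe set matched the lists for oil body proteins and for the abscisic acid pathway, which are therefore not described.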

How the data were processed

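Total RNA of whole Evans seeds was measured on 10 arrays (5 time points, 2 biological samples each). The deposited intensity values are linear-scale signals that the authors made with MAS5 software and global scaling. The deposited table holds no detection calls, and 2 arrays per time point limit the precision. By the study's methods each replicate pooled pods of several plants. The p-values rest on the spread between such pools, moderated by a prior taken from all probe sets. They do not measure the spread between single plants or seeds.

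Signals were brought to log2, centred on each array's median and fitted with limma 3.58.1 (R 4.3.3) with fixed effects for replicate number and time, as in the study's methods, and a variance trend (4 residual and 5.08 prior degrees of freedom). The overall F-test called time effects at adjusted p under 0.01, and differences between times were called at adjusted p under 0.05, with Benjamini-Hochberg adjustment over all 37593 probe sets. For display, signals were scaled to a median of 309.9.

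Gene names came from the platform's annotation, where 8677 probe sets carry 1 symbol and 370 several, and 96 members (62 genes) were placed by RefSeq. Probe sets called over time were named, 12 of them with every array by rule (the widest ranges of means with a highest mean of at least 50) and 5 more picked with their values in view (BZIP10, BZIP124, BZIP126 and 2 of BZIP59), as were the 5 not called with the highest mean signals and up to 3 members of other lists. The members and lists were chosen with earlier results of these data known. Alternatives covered scaling, variance prior, test, filter, pseudocount, threshold, membership, replicate block and leaving out each array.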

Additional observations from a re-analysis of the deposited data

How the results depend on the processing

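Replicate numbers do not pair the arrays (replicate differences had correlations between -0.0336 and 0.0302 in the 10 comparisons of time points). With no replicate block the count over time was within 1.5 times the main one, 2 bZIP probe sets in place of 1 were called at 40 against 30 DAF, and 6 in place of 2 by 40 DAF. Without the variance trend 0 were called over time (28 at an unadjusted p under 0.01), 0 at 40 against 30 DAF and 0 by 40 DAF, and the ordinary F-test and its pairwise counterpart gave 0 over time (18 unadjusted), 0, 0 and 25 at 50 against 45 DAF. Neither called any probe set of the array over time. By 40 DAF, quantile normalization and uncentred values gave 5 each, the filter on dim probe sets 6, a pseudocount of 50 gave 6, and 1 probe set per gene gave 1. The exchanged thresholds (0.05 over time, 0.01 between times) gave 46 over time, where 38.8% of all probe sets were called. They gave 0 at 40 against 30 DAF, 27 at 50 against 45 DAF and 0 by 40 DAF. Leaving out 1 array at a time gave 8 to 36 over time (fewest without either 50 DAF array, 8 and 11, and 17 and 16 without either 25 DAF array), 0 to 6 at 40 against 30 DAF, 0 to 1 at 45 against 40 DAF, 24 to 42 at 50 against 45 DAF (24 without replicate 1 of 50 DAF), 34 to 52 at 50 against 25 DAF and 0 to 11 by 40 DAF. Over all probe sets, too, more were called over time without either 45 DAF array, and fewer without either 25 or 50 DAF array. Shares of all probe sets called by 40 DAF are not given for these refits. Without replicate 1 or 2 of 45 DAF, more bZIP probe sets were called by 40 DAF than in the full set. Among them were BZIP95, LOC778136, BZIP124, BZIP126 and, lower, BZIP10, so the late onset by calls depends on those arrays. The maturation proteins called by 40 DAF then numbered 28 in both cases, but 2 without either 25 DAF array, and 8 and 2 without the first and the other 40 DAF array. Median midpoint days of rises moved to 45.4 DAF (bZIPs) and 36.4 DAF (maturation proteins) with uncentred values. The 25th percentile of the bZIP rises moved further, between 45.5 DAF on centred values, 40.7 DAF with quantile normalization and 38.6 DAF with uncentred values. Over all rises it was 43.9, 37.4 and 36.0 DAF. All 203 moderated refits of the 12 members with the widest ranges kept direction and call for 50 against 25 DAF. The ordinary test was not among these refits. It called 40 bZIP probe sets at 50 against 25 DAF, where the main fit called 50. The causes were not tested.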
